A study of Mus musculus with 6 samples.

Results

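The genes examined here are 53 genes of the cell cycle and of DNA replication, among 24346 gene symbols with a value in each library. They were chosen by symbol, and all 53 were listed in the tables: 5 D-type cyclins and their kinases, 3 CDK inhibitors, 7 pocket proteins and E2F factors, 3 genes of the cyclin E and Cdk2 step, 12 genes of origin licensing and the replication fork, 4 genes of nucleotide synthesis and 19 genes of G2 and mitosis. RNA was sequenced from sorted splenic follicular (Fo) B cells, the recirculating mature B cells of the follicles. The cells came from mice aged 8 weeks, either homozygous for the G9gl heavy and light chain knock-in (3 libraries, called G9gl) or B6 controls (3 libraries, called WT). G9gl encodes the unmutated precursor of an anti-dsDNA antibody first found in lupus, and the genotypes were compared to understand why G9gl B cells are anergic, that is, persist but respond poorly. Both genotypes were sorted with the same gate, B220+ CD93- CD21lo CD23hi. A gate on CD21 and CD23 limits the comparison to cells that still look follicular on their surface. No label says whether the libraries of a genotype came from separate mice, so every p-value reflects the spread among these libraries alone, part of which may be technical.

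Resting B cells stay outside the cycle. In such cells the pocket proteins, which are the retinoblastoma protein Rb1 and its relatives Rbl1 and Rbl2, bind E2F factors and hold cell cycle genes down. Cyclin D with Cdk4 or Cdk6 and then cyclin E with Cdk2 phosphorylate the pocket proteins, E2F targets for DNA synthesis are switched on, and a later wave that includes cyclin B and its kinase leads into mitosis. In that later wave many promoters carry a CHR element, a short sequence bound by the MuvB core that the DREAM complex and B-Myb share.

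The 6 libraries were of similar depth, with an estimated 9330000 to 10700000 fragments each. The sum of the deposited FPKM values was 657759 to 671533 in G9gl and 603054 to 611557 in WT, and 14823 to 16187 genes were above 0 FPKM in G9gl against 13467 to 14908 in WT. FPKM divides the fragments of a gene by its transcript length and by the size of the library. For a 2 kb transcript, 1 FPKM stands for about 18.7 to 21.4 fragments, so values under 1 FPKM carry a large counting error. B cell markers were abundant in every library, with a summed level over 10 genes of 7880 to 8281 FPKM in G9gl and 8669 to 8946 FPKM in WT, led by Cd79b and Cd79a, which encode the signalling chains of the B cell receptor. Cr2, which encodes CD21, was lower in G9gl, at 59.2 to 63.9 FPKM against 123 to 137 FPKM in WT.

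Of the 53 genes, 43 passed a filter of 1 FPKM or more in 3 or more libraries and were tested with limma on log2(FPKM + 1), adjusted over all 10122 genes tested. A gene is called at an adjusted p under 0.05, and a log2 fold change is always G9gl minus WT of log2(FPKM + 1), so changes of weakly expressed genes are understated. In G9gl, 16 of the 43 were higher and 3 were lower, while 24 were not called. Over all tested genes 11.8% were called higher and 11.6% lower, 23.4% in either direction. The median log2 fold change of the 43 was 0.23, against -0.0022 over all tested genes. Ube2c and Tpx2, which are among the 16, passed the filter through the G9gl libraries alone and so had to differ. Bulk RNA cannot tell apart a different number of cycling cells and a different amount of RNA per cell.

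The split between higher and lower depended on the scaling. When values were rescaled to a constant total (TPM), the median of all tested genes shifted to -0.127 and that of the 43 to 0.098. Under that scaling 11 of the 43 were called higher and 7 lower, with 7.21% and 24.6% of all tested genes called in the same directions (31.8% in either). Relative to all tested genes the median of the 43 was 0.228 higher in FPKM and 0.225 higher in TPM. The count of higher genes was 10 without G9gl replicate 2, 9 without WT replicate 1 and 10 without WT replicate 2. Over all 10122 tested genes the number higher was 853, 950 and 827 in the same fits, against 1191 with all libraries. The groups did not overlap in 19 of the 43 with G9gl above WT and in 6 with G9gl below, and over all tested genes these shares were 20.3% and 20.5%.

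**Figure D1:**
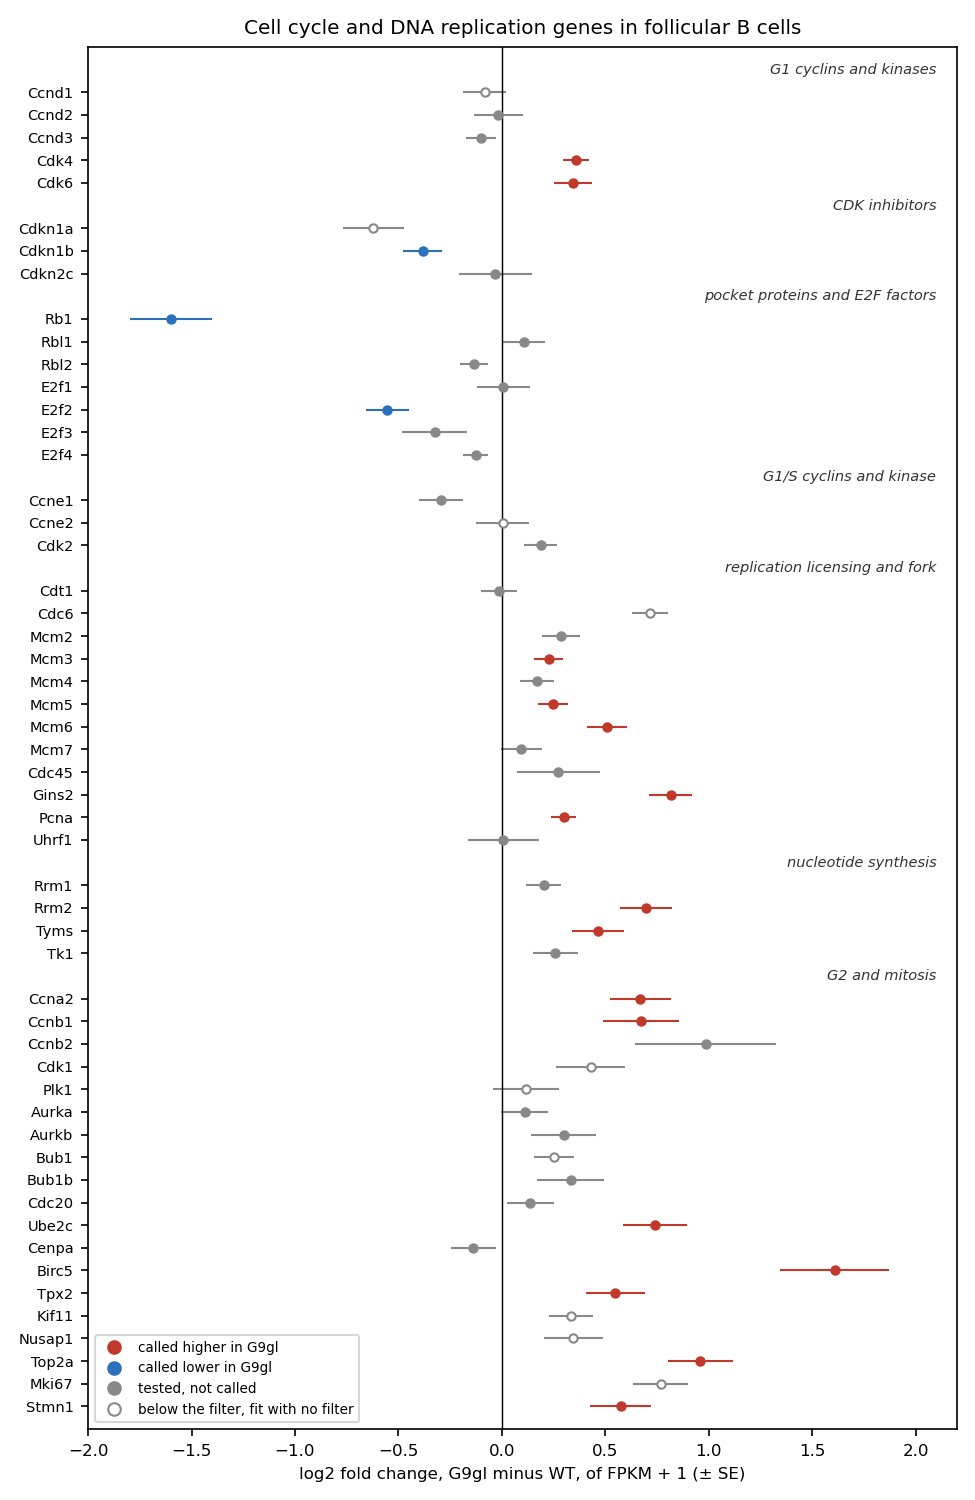
Log2 fold change (G9gl minus WT, of FPKM + 1) of each of the 53 genes, grouped by role from the D-type cyclins at the top to mitosis at the bottom. Points are limma estimates and bars are ± 1 standard error (n = 3 libraries per genotype); open points are genes below the expression filter, taken from a fit without it. Rb1 lies far to the left at -1.60 and Birc5 far to the right at 1.61, and called genes of replication and mitosis all lie right of 0.

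Among the pocket proteins and E2F factors, Rb1 and E2f2 were lower in G9gl, and none of the 7 was called higher (11.6% of all tested genes were lower and 11.8% higher). Rb1, which encodes the retinoblastoma protein (chr14:73183673-73325822 in GRCm38), had 9.56, 4.91 and 6.72 FPKM in the G9gl libraries and 28.1, 21.1 and 19.8 FPKM in the WT libraries. The lowest WT library was thus above the highest G9gl library by a wide margin. The log2 fold change was -1.60 ± 0.20 (SE), 3.03-fold lower on that scale, with a limma adjusted p of 5.3e-04. That call held in each of the 14 alternative settings. Rb1 shares 408 exon bases with Lpar6 and 488 with Rcbtb2 on the opposite strand, and libraries of this kind keep no strand. Lpar6 was at 14.6 to 15.6 FPKM in G9gl and 14.3 to 16.4 FPKM in WT, and Rcbtb2 at 5.54 to 6.10 FPKM in G9gl and 4.64 to 6.40 FPKM in WT.

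The Rb1 relatives were not called. Rbl1, which encodes p107, averaged 12.4 ± 1.40 FPKM in G9gl and 11.5 ± 0.977 FPKM in WT (SD, n = 3 each). Rbl2, which encodes p130, the pocket protein most associated with quiescent cells, averaged 24.9 ± 0.765 FPKM in G9gl and 27.5 ± 1.19 FPKM in WT (limma adjusted p = 0.18). In G9gl the level of Rb1 was therefore below those of both relatives, whereas in WT it was between them. These are means over 3 libraries, and the difference in order was not itself tested.

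E2f2, one of the activator E2F factors, had 11.0, 8.85 and 8.28 FPKM in G9gl and 14.2, 14.1 and 14.0 FPKM in WT. The WT libraries were nearly identical to each other and all above G9gl (log2 fold change -0.55 ± 0.10, limma adjusted p = 0.0049), and the call held in each alternative. E2f1 and E2f3 are the other activators. E2f1 averaged 3.46 ± 0.336 FPKM in G9gl and 3.45 ± 0.552 FPKM in WT, and E2f3 averaged 1.89 ± 0.278 FPKM in G9gl and 2.65 ± 0.577 FPKM in WT (log2 fold change -0.33 ± 0.16, adjusted p = 0.17). E2f4, a repressor E2F that works with the pocket proteins in resting cells, was the most abundant of the E2F genes, at 68.3 ± 3.37 FPKM in G9gl and 74.6 ± 2.44 FPKM in WT (adjusted p = 0.16). After rescaling to TPM, Rbl2 (adjusted p = 0.020) and E2f4 (adjusted p = 0.013) were called lower as well.

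E2F genes can carry E2F sequences in their own promoters. The more upstream RefSeq promoter window of E2f2, chr4:136172024-136172323 (plus strand) in GRCm38.p6, is shown because it holds 1 of the E2F words searched (TTTGGCGC) and 1 CCAAT box, both in capitals. Positions count from the annotated start, and the E2F word begins at 40 and the CCAAT box at -13.
E2f2: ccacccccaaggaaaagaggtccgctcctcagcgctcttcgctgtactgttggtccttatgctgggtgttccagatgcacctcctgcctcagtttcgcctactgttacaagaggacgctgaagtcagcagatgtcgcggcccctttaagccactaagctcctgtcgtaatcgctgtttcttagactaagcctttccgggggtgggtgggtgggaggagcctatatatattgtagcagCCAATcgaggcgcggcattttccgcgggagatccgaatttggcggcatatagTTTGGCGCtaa

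Of the kinases that act on the pocket proteins, Cdk4 and Cdk6 were higher in G9gl. Cdk4, the kinase partner of the D-type cyclins, had 138, 151 and 139 FPKM in G9gl and 111, 104 and 118 FPKM in WT. All G9gl libraries were above all WT libraries (log2 fold change 0.36 ± 0.06, limma adjusted p = 0.0034), in each alternative setting. Cdk6, its close relative, averaged 13.3 ± 0.801 FPKM in G9gl and 10.3 ± 0.876 FPKM in WT (log2 fold change 0.34 ± 0.09, adjusted p = 0.025). Its call was lost in TPM (adjusted p = 0.10), without a filter (0.060), and without G9gl replicate 1 (0.052), G9gl replicate 3 (0.086), WT replicate 1 (0.081) or WT replicate 2 (0.080). Cdk4 shares 641 exon bases with Tspan31 on the opposite strand. Tspan31 moved the same way as Cdk4, at 42.8 to 52.8 FPKM in G9gl and 34.9 to 39.7 FPKM in WT. The part of Tspan31 fragments in the Cdk4 values was not tested.

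The D-type cyclins that these kinases bind were not called. Ccnd3 was the most abundant, at 50.3 ± 2.15 FPKM in G9gl and 54.1 ± 4.31 FPKM in WT, and it was called lower only after rescaling to TPM (adjusted p = 0.040). Ccnd2, the cyclin best known for its induction by B cell receptor signals, averaged 19.8 ± 1.95 FPKM in G9gl and 20.2 ± 3.36 FPKM in WT. Ccnd1 stayed at 0.229 to 0.391 FPKM in G9gl and 0.233 to 0.537 FPKM in WT, below the filter.

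Of the CDK inhibitors, Cdkn1b was lower in G9gl. It encodes p27, which restrains cyclin E and Cdk2 in resting lymphocytes, and it had 8.79, 8.33 and 9.45 FPKM in G9gl and 12.9, 11.0 and 11.6 FPKM in WT. The groups did not overlap (log2 fold change -0.38 ± 0.09, limma adjusted p = 0.017), but the call was lost without G9gl replicate 2 (adjusted p = 0.062) or WT replicate 1 (0.061). Cdkn1a, which encodes the p53 target p21, had 0.423, 0.296 and 0.289 FPKM in G9gl and 0.697, 1.50 and 1.04 FPKM in WT, below the filter. In a fit without any filter, where 5.07% of 19079 genes were called higher and 4.11% lower (9.19% in either direction), Cdkn1a was called lower (log2 fold change -0.62, adjusted p = 0.047). Cdkn2c, an inhibitor of Cdk4 and Cdk6, averaged 2.75 ± 0.913 FPKM in G9gl and 2.77 ± 0.318 FPKM in WT.

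At the step from G1 into S phase no gene was called. Ccne1, a cyclin E gene, averaged 4.59 ± 0.28 FPKM in G9gl and 5.86 ± 0.489 FPKM in WT, with no overlap between the groups (log2 fold change -0.29 ± 0.10, adjusted p = 0.072). It was called lower after rescaling to TPM (adjusted p = 0.019) and after a GC content and length trend was removed (0.037). Its kinase Cdk2 averaged 32.8 ± 2.50 FPKM in G9gl and 28.7 ± 1.78 FPKM in WT (log2 fold change 0.19 ± 0.08, adjusted p = 0.12), and was called higher without G9gl replicate 1 (0.048). Ccne2, the other cyclin E gene, was at most 0.345 FPKM in G9gl and 0.497 FPKM in WT.

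**Figure D2:**
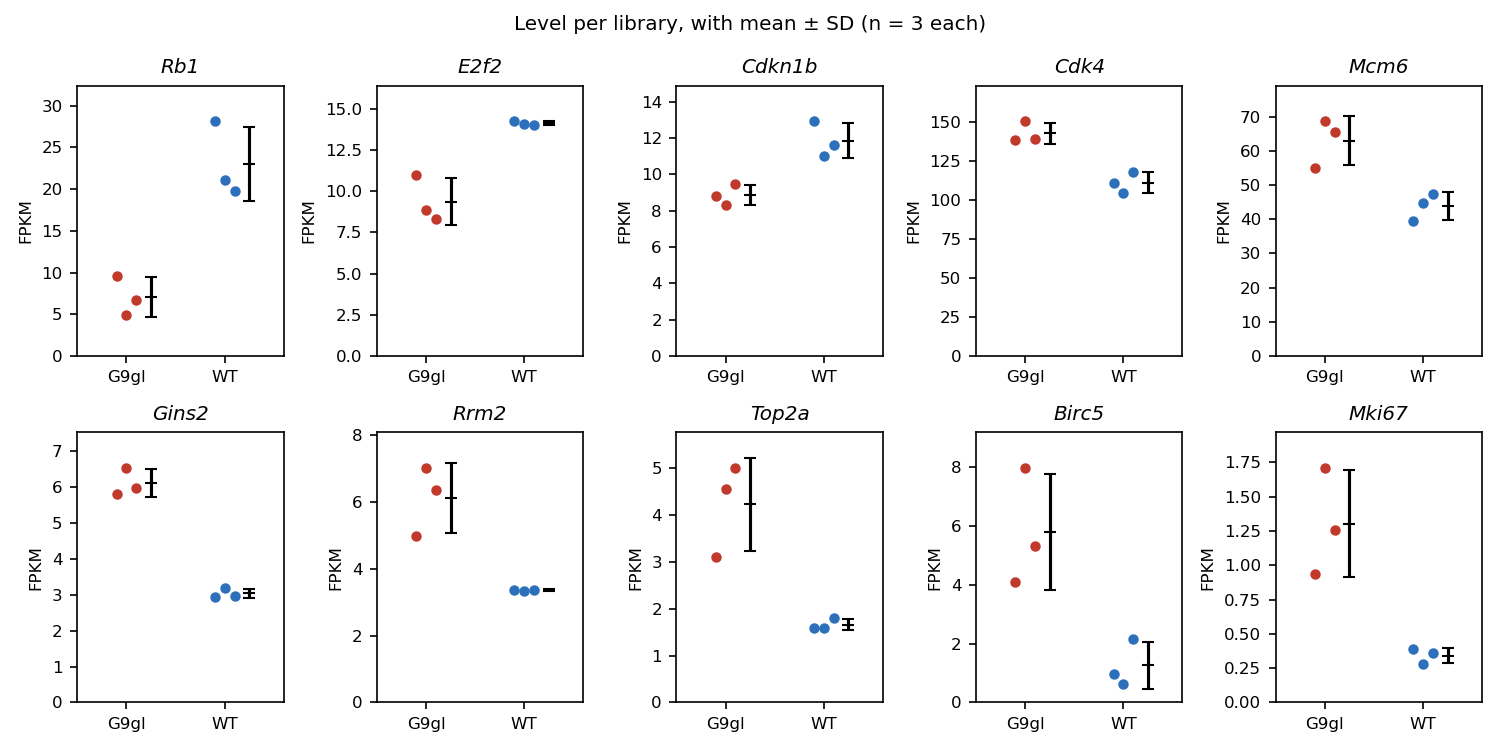
FPKM of 10 genes in each library, with a zero-based linear axis for each gene; points are libraries, and the bar beside them is the mean ± SD (n = 3 libraries per genotype). Rb1, E2f2 and Cdkn1b lie lower in G9gl and the other genes higher, with no overlap between genotypes; for Birc5 the G9gl libraries span 4.11 to 7.99 FPKM and the WT libraries 0.644 to 2.16 FPKM.

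Genes of origin licensing and of the replication fork were higher in 5 of 11 tested cases and lower in none, with a median log2 fold change of 0.25. Over all tested genes 11.8% were higher. The count was 3 without G9gl replicate 2 or any 1 WT library, and 2 in TPM, where 7.21% of all tested genes were higher. Without these libraries the number higher over all tested genes ranged from 827 to 990, against 1191 with all libraries. Gins2, a subunit of the GINS complex that activates the replicative helicase, had the largest of these changes. It had 5.81, 6.55 and 5.98 FPKM in G9gl and 2.95, 3.19 and 2.98 FPKM in WT, 2.01 times as much in the mean. Libraries within each genotype were close to each other (log2 fold change 0.82 ± 0.10, limma adjusted p = 6.0e-04), and the call held in each alternative. Gins2 shares 2758 exon bases with Gse1 on the opposite strand, and Gse1 moved the other way, at 6.05 to 6.36 FPKM in G9gl and 8.15 to 8.64 FPKM in WT.

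The MCM genes encode the 6 subunits of the ring-shaped helicase loaded at origins. Mcm6 had 55.0, 68.7 and 65.5 FPKM in G9gl and 39.5, 44.8 and 47.4 FPKM in WT (log2 fold change 0.51 ± 0.10, limma adjusted p = 0.0048), and its call held in each alternative. Mcm3 averaged 35.8 ± 2.31 FPKM in G9gl and 30.5 ± 1.09 FPKM in WT (log2 fold change 0.23 ± 0.07, adjusted p = 0.045), and Mcm5 averaged 30.5 ± 1.43 FPKM in G9gl and 25.5 ± 1.17 FPKM in WT (log2 fold change 0.25 ± 0.07, adjusted p = 0.032). These calls were close to the threshold. That of Mcm3 was lost in 9 of the 14 alternatives, including TPM (adjusted p = 0.33) and the removal of any library except G9gl replicate 1, with adjusted p-values of 0.17, 0.089, 0.097, 0.14 and 0.064 without G9gl replicates 2 and 3 and WT replicates 1, 2 and 3. That of Mcm5 was lost in 7, including TPM (0.23) and the removal of any library except G9gl replicate 3, with adjusted p-values of 0.063, 0.12, 0.092, 0.060 and 0.063 without G9gl replicates 1 and 2 and WT replicates 1, 2 and 3.

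The other subunits were not called. Mcm2 averaged 33.5 ± 1.10 FPKM in G9gl and 27.5 ± 3.45 FPKM in WT (adjusted p = 0.053) and was called higher in 4 alternatives, at adjusted p-values down to 0.035. Mcm4 averaged 31.9 ± 2.68 FPKM in G9gl and 28.2 ± 1.83 FPKM in WT, and Mcm7 averaged 39.2 ± 4.66 FPKM in G9gl and 36.6 ± 3.29 FPKM in WT. The estimate for Mcm7 changed sign in TPM. In every subunit the G9gl mean in FPKM was above the WT mean, and Mcm6 was the most abundant in both genotypes.

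E2F words were frequent in the promoters of this group. The words searched were TTTCCCGC, TTTCGCGC, TTTGCCGC and TTTGGCGC with their reverse complements, and 7 of the 12 RefSeq windows of licensing and fork genes held at least 1 of them (58.3%). The windows run from 250 bases before to 50 bases after an annotated start, and 4.11% of the 9877 windows of tested genes held such a word. The windows of Mcm6 at chr1:128359656-128359955 (minus strand) and of Mcm5 at chr8:75109259-75109558 (plus strand), in GRCm38.p6, are shown because they hold 3 and 2 matches. The window of Mcm3 and a window of Mcm7, which was not called, also hold 2 each. Some matches overlap, since a word and the reverse complement of another can share bases. Capitals mark the E2F words and CCAAT boxes.
Mcm6: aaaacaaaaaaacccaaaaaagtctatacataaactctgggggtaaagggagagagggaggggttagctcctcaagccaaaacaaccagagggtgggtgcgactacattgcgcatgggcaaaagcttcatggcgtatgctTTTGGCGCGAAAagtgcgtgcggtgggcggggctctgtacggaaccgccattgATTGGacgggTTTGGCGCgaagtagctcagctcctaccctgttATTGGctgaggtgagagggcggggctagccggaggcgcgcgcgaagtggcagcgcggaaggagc
Mcm5: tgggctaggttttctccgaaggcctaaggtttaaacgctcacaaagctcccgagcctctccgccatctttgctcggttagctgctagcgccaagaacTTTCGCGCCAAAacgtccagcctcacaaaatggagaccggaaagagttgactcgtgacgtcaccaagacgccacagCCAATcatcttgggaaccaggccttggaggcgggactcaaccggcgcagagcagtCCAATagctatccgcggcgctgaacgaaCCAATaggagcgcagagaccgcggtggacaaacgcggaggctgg
Mcm6 and Mcm5 were both called higher. Over the members' windows in RefSeq, 25% of those of higher members, 33.3% of those of lower members and 24% of those of tested members that were not called held an E2F word, from 12, 3 and 25 windows.

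Pcna, the sliding clamp that holds polymerases on DNA, had 78.6, 85.6 and 85.4 FPKM in G9gl and 67.4, 65.0 and 70.0 FPKM in WT (log2 fold change 0.30 ± 0.06, limma adjusted p = 0.0068). It was the most abundant gene of this group in both genotypes, and its call was lost in TPM alone (adjusted p = 0.067). Cdc6, which loads the MCM ring, was below the filter, at 1.01, 1.23 and 0.952 FPKM in G9gl and 0.311, 0.193 and 0.267 FPKM in WT. Without a filter it was called higher (log2 fold change 0.71, adjusted p = 0.0050), with a mean 4.15 times that in WT. Its loading partner Cdt1 averaged 32.7 ± 3.13 FPKM in G9gl and 33.1 ± 2.47 FPKM in WT. Cdc45, a part of the active helicase, averaged 3.27 ± 0.295 FPKM in G9gl and 2.64 ± 1.08 FPKM in WT, and Uhrf1, which maintains DNA methylation behind the fork, averaged 6.71 ± 1.38 FPKM in G9gl and 6.68 ± 1.40 FPKM in WT. None of these 3 was called.

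Among the nucleotide synthesis genes, Rrm2 and Tyms were higher in G9gl, where 11.8% of all tested genes were higher. In all 4 genes the G9gl libraries were above the WT libraries without overlap, as in 20.3% of all tested genes. Rrm2 encodes the cell cycle-regulated subunit of ribonucleotide reductase. It had 4.98, 7.02 and 6.35 FPKM in G9gl and 3.37, 3.34 and 3.38 FPKM in WT (log2 fold change 0.70 ± 0.13, limma adjusted p = 0.0040), and the call held in each of the 13 alternatives in which it was tested. Rrm1, the large subunit, averaged 24.4 ± 0.653 FPKM in G9gl and 21.1 ± 2.12 FPKM in WT (adjusted p = 0.12). Tyms, thymidylate synthase, averaged 4.46 ± 0.457 FPKM in G9gl and 2.96 ± 0.377 FPKM in WT (log2 fold change 0.47 ± 0.12, adjusted p = 0.024). The Tyms call was lost in 7 alternatives, among them without G9gl replicate 1 (adjusted p = 0.059), G9gl replicate 2 (0.086), WT replicate 1 (0.079) or WT replicate 2 (0.077). Tk1, thymidine kinase, averaged 13.9 ± 1.76 FPKM in G9gl and 11.5 ± 1.05 FPKM in WT (adjusted p = 0.12).

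**Figure D3:**
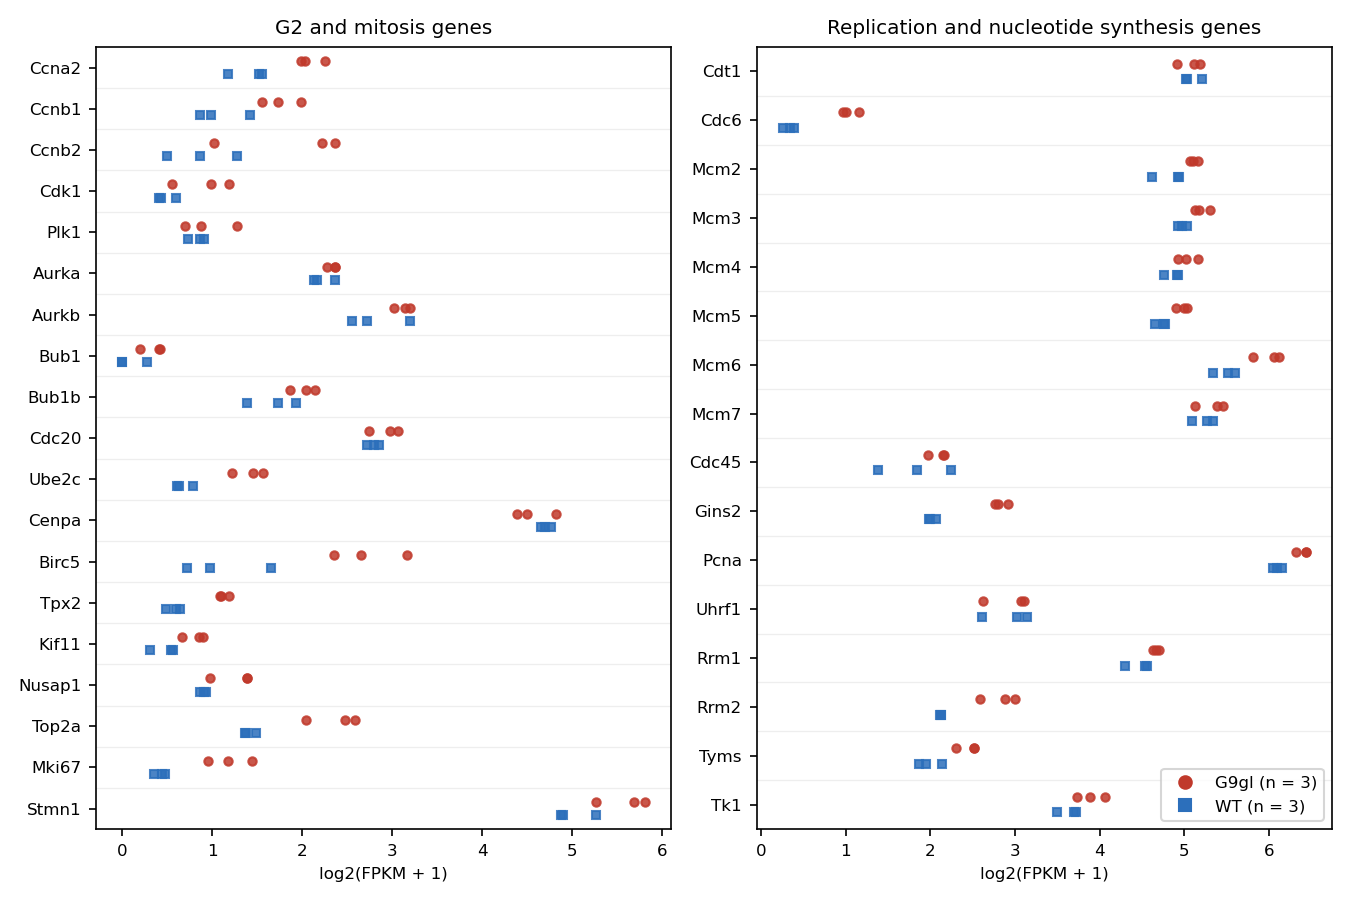
Level of each gene of G2 and mitosis (left panel) and of replication and nucleotide synthesis (right panel) in each library, as log2(FPKM + 1); circles are the 3 G9gl libraries and squares the 3 WT libraries. All circles lie to the right of all squares in 9 of 19 G2 and mitosis, 8 of 12 licensing and fork, and 4 of 4 nucleotide synthesis genes. In the others, Cdt1, Uhrf1, Aurka and Cenpa among them, the genotypes overlap. Among tested genes the counts are 6 of 13, 7 of 11 and 4 of 4, beside 20.3% of all tested genes. The 6 include Ube2c and Tpx2, which passed the filter through the G9gl libraries alone.

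Genes of G2 and mitosis were mostly low in both genotypes. Of the 13 tested, 7 were higher in G9gl and none lower, where 11.8% of all tested genes were higher, and the median log2 fold change was 0.58 (0.92 with a pseudocount of 0.1). That count includes Ube2c and Tpx2, which passed the filter through the G9gl libraries alone, and 6 of the 19 were below the filter. In the fit without a filter, which takes in all 19, 6 were higher and none lower, with a median of 0.43, and 5.07% of all genes were higher. The count of 7 was 4 without G9gl replicate 2, G9gl replicate 3 or WT replicate 1. Over all tested genes the number higher was 853, 938 and 950 in these fits, against 1191 with all libraries. With a filter of 5 FPKM 4 genes were left, of which 1 was higher, with a median of 0.22. Under that filter 1005 of 8022 tested genes were higher. Their summed level over all 19 genes was 105, 131 and 122 FPKM in G9gl and 78.4, 80.6 and 96.7 FPKM in WT, and much of that sum came from Stmn1 and Cenpa. Among the 3 G9gl libraries, replicate 1 was lowest in 14 of the 19 genes, and among the WT libraries, replicate 3 was highest in 12.

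Birc5, which encodes survivin of the chromosomal passenger complex, had the largest increase among the tested members. It had 4.11, 7.99 and 5.31 FPKM in G9gl and 0.966, 0.644 and 2.16 FPKM in WT, 4.62 times as much in the mean (log2 fold change 1.61 ± 0.26, limma adjusted p = 0.0023). Top2a, the topoisomerase that untangles chromosomes before division, had 3.12, 4.57 and 5.02 FPKM in G9gl and 1.59, 1.59 and 1.80 FPKM in WT (log2 fold change 0.96 ± 0.16, adjusted p = 0.0023). In both genes the lowest G9gl library was above the highest WT library. Their calls held in each of the 13 alternatives in which they were tested.

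Mki67, which encodes the proliferation antigen Ki-67, had 0.939, 1.71 and 1.26 FPKM in G9gl and 0.389, 0.279 and 0.357 FPKM in WT, below the filter. Without a filter it was called higher (log2 fold change 0.77, adjusted p = 0.018), with a mean 3.81 times that in WT. Ube2c, the ubiquitin-conjugating enzyme of the anaphase-promoting complex, had 1.33, 1.96 and 1.74 FPKM in G9gl and 0.525, 0.549 and 0.722 FPKM in WT (log2 fold change 0.74 ± 0.15, adjusted p = 0.0078). No alternative ended the call, but Ube2c passed the filter through the G9gl libraries alone and so had to differ. Levels near 1 FPKM are a small fraction of those of Pcna or Cdk4 in the same libraries.

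Of the cyclins of S phase and mitosis, Ccna2 and Ccnb1 were higher. Ccna2, cyclin A, averaged 3.27 ± 0.429 FPKM in G9gl and 1.69 ± 0.370 FPKM in WT (log2 fold change 0.67 ± 0.15, limma adjusted p = 0.011). Its call held in each of the 13 alternatives in which it was tested. Ccna2 shares 510 exon bases on the opposite strand with Exosc9, at 24.1 to 28.6 FPKM in G9gl and 25.04 to 26.3 FPKM in WT. Ccnb1, a cyclin B gene, averaged 2.41 ± 0.514 FPKM in G9gl and 1.16 ± 0.452 FPKM in WT (log2 fold change 0.67 ± 0.18, adjusted p = 0.027). The Ccnb1 call was lost without a filter (0.085) and without G9gl replicate 2 (0.065), G9gl replicate 3 (0.095), WT replicate 1 (0.090) or WT replicate 2 (0.089). Ccnb2, the other cyclin B gene, had 1.02, 4.14 and 3.66 FPKM in G9gl and 0.414, 1.43 and 0.822 FPKM in WT. The groups overlapped through G9gl replicate 1 (log2 fold change 0.98 ± 0.34, adjusted p = 0.064), and without that library Ccnb2 was called higher (adjusted p = 0.0019). Their kinase Cdk1 was below the filter, at 0.467, 1.28 and 0.986 FPKM in G9gl and 0.511, 0.352 and 0.329 FPKM in WT. The groups overlapped, and without a filter Cdk1 was not called (limma adjusted p = 0.18).

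Tpx2, a spindle assembly factor, averaged 1.18 ± 0.0865 FPKM in G9gl and 0.494 ± 0.0788 FPKM in WT (log2 fold change 0.55 ± 0.14, limma adjusted p = 0.023), and its call was lost without G9gl replicate 2 (0.094), G9gl replicate 3 (0.060), WT replicate 1 (0.067) or WT replicate 3 (0.051). Stmn1, which encodes the microtubule-destabilising protein stathmin, had 37.3, 55.0 and 50.5 FPKM in G9gl and 28.3, 28.7 and 37.3 FPKM in WT (log2 fold change 0.58 ± 0.15, adjusted p = 0.021). It was the most abundant gene of the mitotic group, and G9gl replicate 1 and WT replicate 3 had nearly the same level. The Stmn1 call was lost without a filter (0.085) and without G9gl replicate 2 (0.065), G9gl replicate 3 (0.064), WT replicate 1 (0.077) or WT replicate 2 (0.080).

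Several genes of mitotic entry and the spindle checkpoint were not called. The mitotic kinase Aurka averaged 4.04 ± 0.185 FPKM in G9gl and 3.68 ± 0.407 FPKM in WT. Aurkb, the kinase of the passenger complex to which survivin belongs, averaged 7.71 ± 0.519 FPKM in G9gl and 6.21 ± 1.73 FPKM in WT (adjusted p = 0.20) and was called higher without WT replicate 3 (0.024). The checkpoint kinase Bub1b averaged 3.06 ± 0.394 FPKM in G9gl and 2.25 ± 0.605 FPKM in WT, and Cdc20, an activator of the anaphase-promoting complex, averaged 6.65 ± 0.879 FPKM in G9gl and 5.92 ± 0.313 FPKM in WT. Cenpa, the centromeric histone, was alone among the 13 in having its estimate below 0, at 22.9 ± 3.86 FPKM in G9gl and 25.1 ± 1.03 FPKM in WT (log2 fold change -0.14 ± 0.11, adjusted p = 0.39), and was called lower without G9gl replicate 1 (0.044). The kinase genes Plk1 and Bub1, the motor gene Kif11 and the spindle gene Nusap1 averaged 0.27 to 1.40 FPKM in G9gl and 0.0699 to 0.875 FPKM in WT. None of these 4 was called without a filter.

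Promoters of the mitotic genes held CHR elements and CCAAT boxes more often than E2F words. A CHR element (TTTGAA, either strand) was in 11 of 15 RefSeq windows of G2 and mitosis genes (73.3%) and in 11.8% of the windows of tested genes. A CCAAT box (CCAAT, either strand), the sequence bound by NF-Y, was in 13 of the 15 (86.7%) and in 38.4% of those of tested genes. E2F words were in 1 of the 15 (6.67%). The windows of Top2a at chr11:99024140-99024439 (minus strand), Ube2c at chr2:164769679-164769978 (plus strand) and Mki67 at chr7:135716330-135716629 (minus strand), in GRCm38.p6, are shown because they hold CHR elements together with several CCAAT boxes, in capitals.
Top2a: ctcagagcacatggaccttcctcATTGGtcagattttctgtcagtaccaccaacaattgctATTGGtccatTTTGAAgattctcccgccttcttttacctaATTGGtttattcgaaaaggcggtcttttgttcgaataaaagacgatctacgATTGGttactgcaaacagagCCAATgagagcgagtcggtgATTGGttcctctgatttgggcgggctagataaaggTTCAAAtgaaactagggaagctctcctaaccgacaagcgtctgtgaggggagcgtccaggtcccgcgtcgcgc
Ube2c: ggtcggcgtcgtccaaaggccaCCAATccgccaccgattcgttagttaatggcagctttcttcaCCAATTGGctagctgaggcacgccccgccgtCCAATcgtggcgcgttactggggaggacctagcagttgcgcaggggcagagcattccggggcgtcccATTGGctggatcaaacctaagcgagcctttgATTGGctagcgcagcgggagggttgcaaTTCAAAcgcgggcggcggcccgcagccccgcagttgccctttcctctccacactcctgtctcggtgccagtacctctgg
Mki67: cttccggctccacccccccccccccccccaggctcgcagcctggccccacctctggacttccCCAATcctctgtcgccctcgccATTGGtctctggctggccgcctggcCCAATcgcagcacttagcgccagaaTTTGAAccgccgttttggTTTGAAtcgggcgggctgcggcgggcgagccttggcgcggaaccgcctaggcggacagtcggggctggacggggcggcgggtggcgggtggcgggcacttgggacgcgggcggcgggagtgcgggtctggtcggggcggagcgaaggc
Counted from the annotated start, a CHR element begins at -23 in Top2a and at -29 in Ube2c. In Mki67 the elements begin at -116 and -98. The Birc5 window held neither motif. Windows of Ccnb2, which was not called, and Cdk1, which was below the filter, each held 2 CHR elements and 3 CCAAT boxes. A CHR element was in 2 of 12 windows of higher members (16.7%) and in 1 of 3 windows of lower members (33.3%). It was in 9 of 25 windows of tested members that were not called (36%). These numbers are too small for a comparison.

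**Figure D4:**
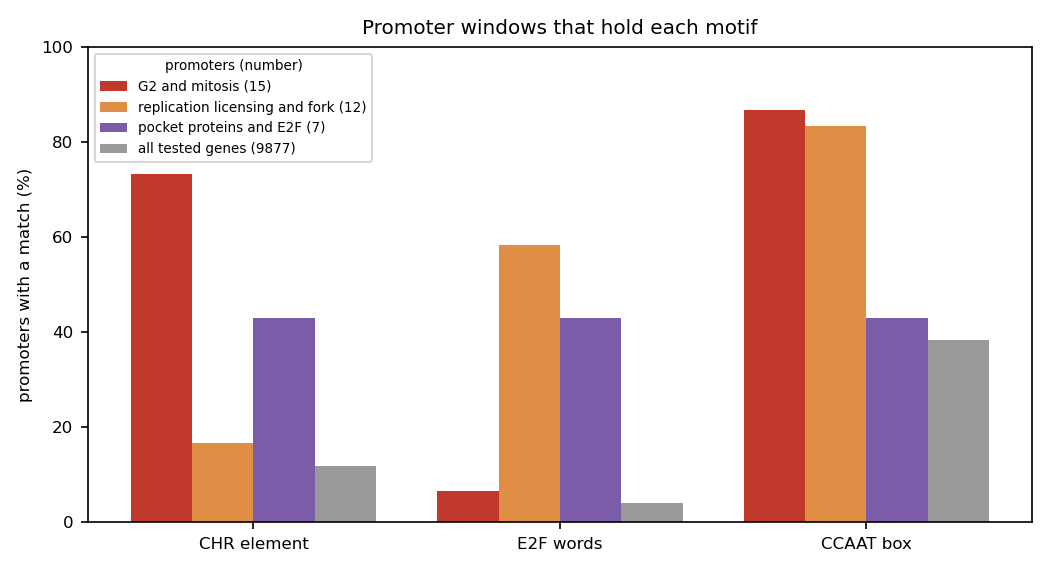
Share of RefSeq promoter windows, in percent, that hold a CHR element, an E2F word or a CCAAT box, for 3 role groups and for all tested genes; the number of windows is in the legend. CHR elements reach 73.3% in G2 and mitosis genes and E2F words 58.3% in licensing and fork genes, against 11.8% and 4.11% in all tested genes.

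Cell cycle genes outside the 53 were called in both directions. In 5 further lists of 156 genes, 128 were tested, 16 were higher in G9gl and 7 lower, with a median log2 fold change of 0.08, and 11.8% and 11.6% of all tested genes were called in these directions. Without G9gl replicate 2 the number higher was 10, and over all tested genes it was 853 in place of 1191. In TPM the number lower was 14 of 128 and the median -0.04, where 24.6% of all tested genes were lower and their median was -0.127.

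Of 41 further replication genes tested, 5 were higher (Rfc2, Dbf4, Pole, Slbp and Chaf1a) and 2 lower. The share called, 17.1%, was not above the 23.4% of all tested genes called in either direction. Rfc2, a subunit of the clamp loader for Pcna, averaged 124 ± 5.64 FPKM in G9gl and 94.5 ± 2.52 FPKM in WT (limma adjusted p = 0.0012), and Dbf4, which activates the Cdc7 kinase at origins, averaged 8.27 ± 0.613 FPKM in G9gl and 5.23 ± 0.286 FPKM in WT (adjusted p = 0.0030). Pold1, the catalytic subunit of a replicative polymerase, was lower, at 60.2 ± 4.06 FPKM in G9gl and 92.0 ± 6.54 FPKM in WT (log2 fold change -0.60 ± 0.07, adjusted p = 4.5e-04). Rrm2b, the p53-inducible counterpart of Rrm2, was lower too, at 5.68 ± 0.519 FPKM in G9gl and 8.63 ± 0.428 FPKM in WT (adjusted p = 0.0048). The cycle-linked and the p53-linked subunit of ribonucleotide reductase thus had opposite signs.

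Of 35 further mitosis genes tested, 9 were higher and 1 lower, beside 11.8% and 11.6% of all tested genes. Kif22, a chromosome-bound kinesin, averaged 3.40 ± 0.373 FPKM in G9gl and 1.52 ± 0.261 FPKM in WT (limma adjusted p = 0.0026), and Cks2, a small partner of CDKs, averaged 24.9 ± 2.60 FPKM in G9gl and 17.2 ± 1.42 FPKM in WT (adjusted p = 0.0047). Ran, a GTPase of nuclear transport and spindle assembly, averaged 157 ± 2.54 FPKM in G9gl and 130 ± 5.92 FPKM in WT (adjusted p = 0.0061), and its call was lost in TPM (0.070). The lower gene was Cdc25b, a phosphatase that activates Cdk1, at 42.0 ± 2.0 FPKM in G9gl and 57.9 ± 2.04 FPKM in WT (log2 fold change -0.45 ± 0.06, adjusted p = 9.4e-04).

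Of 15 tested checkpoint and DREAM genes, Wee1 was higher and Lin54 lower, a share called of 13.3% against 23.4% of all tested genes. Wee1, the kinase that inhibits Cdk1, averaged 7.27 ± 0.233 FPKM in G9gl and 4.64 ± 0.542 FPKM in WT (limma adjusted p = 0.0050). Lin54, the DNA-binding subunit of the MuvB core, averaged 5.15 ± 0.244 FPKM in G9gl and 6.75 ± 0.535 FPKM in WT (adjusted p = 0.042), and its call was lost in 10 alternatives, among them without any 1 library (adjusted p-values of 0.050, 0.10 and 0.12 without G9gl replicates 1, 2 and 3, and of 0.12, 0.064 and 0.081 without WT replicates 1, 2 and 3). Of 17 tested quiescence and p53 pathway genes none was higher and 3 were lower, beside 11.8% and 11.6% of all tested genes, so the number lower was near the background. Btg2, an antiproliferative p53 target, averaged 123 ± 2.60 FPKM in G9gl and 217 ± 6.96 FPKM in WT (log2 fold change -0.81 ± 0.05, adjusted p = 9.7e-06). Foxo1, a transcription factor tied to quiescence in lymphocytes, averaged 67.4 ± 8.95 FPKM in G9gl and 90.9 ± 4.92 FPKM in WT (adjusted p = 0.0085), and Gadd45b, a stress-response gene, averaged 26.5 ± 0.551 FPKM in G9gl and 31.9 ± 2.07 FPKM in WT (adjusted p = 0.029). The Gadd45b call was lost without any 1 library except WT replicate 3 (0.053, 0.062 and 0.083 without G9gl replicates 1, 2 and 3, and 0.077 and 0.11 without WT replicates 1 and 2). Of 20 genes of the APC/C and SCF ubiquitin ligases, Anapc15 alone was called, at 39.0 ± 3.18 FPKM in G9gl and 29.4 ± 2.35 FPKM in WT (adjusted p = 0.0092).

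**Figure D5:**
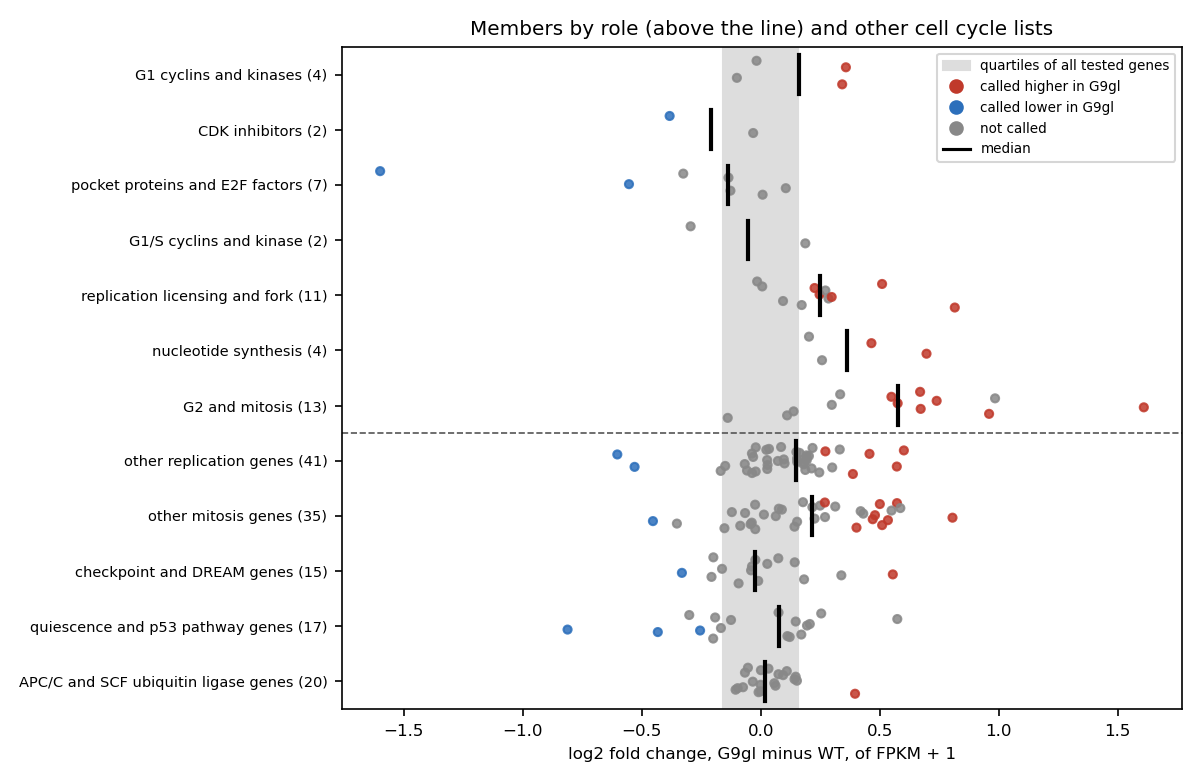
Log2 fold changes (G9gl minus WT, of FPKM + 1) of tested genes in each role group of the 53 genes (above the dashed line) and in 5 further cell cycle lists (beneath it), with the number tested in parentheses; black bars are medians and the grey band spans the quartiles of all tested genes. The G2 and mitosis median lies at 0.58, against 0.02 for APC/C and SCF genes. The 0.58 includes Ube2c and Tpx2, which passed the filter through the G9gl libraries alone. Without a filter the median over all 19 G2 and mitosis genes was 0.43, and with a filter of 5 FPKM it was 0.22 over 4 genes.

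Genes that mark other cells also differed between the genotypes. Macrophage markers were higher in 9 of 11 tested, beside 11.8% of all tested genes, with a summed level over 13 genes of 60.7 to 67.7 FPKM in G9gl and 23.3 to 31.2 FPKM in WT, led by Lyz2. Erythroid markers summed to 123 to 351 FPKM in G9gl and 81.9 to 94.5 FPKM in WT, mostly globin transcripts. Of the 4 tested, Hbb-b1 and Hbb-b2 were higher, Car2 was lower and Hba-a1 was not called. Over all tested genes 11.8% were higher and 11.6% lower. The erythroid sum was highest in G9gl replicate 1, where Hba-a1 was at 205 FPKM. Neutrophil markers summed to 15.2 to 34.5 FPKM in G9gl and 2.11 to 7.88 FPKM in WT, led by S100a8. Of the 2 tested, S100a8 was higher and S100a9 was not called. In the fit without a filter, 3 of the 7 neutrophil markers were higher, S100a8, Mpo and Camp, and none lower. Mpo and Camp were at 0 FPKM in every WT library and averaged 0.474 and 1.16 FPKM in G9gl. Of the 14 erythroid markers none was higher in that fit and 1 was lower. All Gata1 and Klf1 values in G9gl were above those in WT, but under 1 FPKM. Over all genes in that fit 5.07% were higher and 4.11% lower. T cell markers summed to 94.8 to 115 FPKM in G9gl and 39.7 to 47.9 FPKM in WT, nearly all from Lck, whereas Cd3e was at most 1.32 FPKM in G9gl and 0.702 FPKM in WT. The part of these cells in the mitotic results was not tested.

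Among B cell states, germinal centre markers summed to 75.3 to 77.3 FPKM in G9gl and 72.6 to 76.0 FPKM in WT. Of these 8 genes, Fas, Rgs13 and S1pr2 were higher in G9gl, Bcl6 was lower, and 4 were below the filter. For comparison with this and the following lists, 11.8% of all tested genes were higher and 11.6% lower. Plasma cell markers summed to 336 to 359 FPKM in G9gl and 311 to 332 FPKM in WT. Of the 6 tested, Jchain, Sdc1 and Derl3 were higher and Fkbp11 lower. Jchain passed the filter through the G9gl libraries alone and so had to differ. Markers of immature and transitional B cells summed to 154 to 185 FPKM in G9gl and 399 to 431 FPKM in WT, almost all from Vpreb3. Of the 3 tested, Vpreb3 and Sox4 were lower and Cd93 was not called. The recombinase genes Rag1 and Rag2 were near 0 in all libraries. The part of these states in the cell cycle results was not tested.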

How the data were processed

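RNA sequencing was done on total RNA of 3 G9gl and 3 WT libraries, grouped by title and genotype, with SMART-Seq HT cDNA and Nextera libraries, per the labels' protocols. The submitters' processing notes name Cufflinks 2.2.1, SAMtools 0.1.19, TopHat2 2.0.13 and Bowtie2 2.2.3, and mm10. The authors deposited 1 value per gene symbol and library, taken as FPKM from those tools and from the values. Their annotation and scaling are not given in the sources that were used. FPKM is a share of all fragments, so abundant transcripts can shift the values of other genes.

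Depth was estimated from the FPKM that 1 fragment gives in single-transcript genes of 1500 bases or more. Genes that reached 1 FPKM in 3 or more libraries were tested with limma 3.58.1 in R 4.3.3 (lmFit, eBayes with a trend) on log2(FPKM + 1), with a genotype term alone, adjusted by Benjamini-Hochberg over all 10122 genes. The procedure was checked on simulated data. Coordinates, GC content, lengths and overlaps are from GENCODE vM21 (GRCm38, which mm10 denotes). Promoter windows are from RefSeq (GRCm38.p6), where 42 members matched by symbol with 49 windows. Motifs were searched on both strands with overlaps allowed.

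The 14 alternatives were a pseudocount of 0.1, no filter, a filter of 5 FPKM, TPM, quantile normalization, median-ratio scaling, a replicate block, leaving out each library, and removal of a GC content and length trend, the last chosen after seeing the data. All members may be named, with up to 4 genes of smallest p from each further list. Called genes of a list named to complete a small count were chosen after their values were seen. The members, the lists and the motifs were chosen with earlier results of these data known, so they are no independent evidence of a direction.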

Additional observations from a re-analysis of the deposited data

How the results depend on the processing

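Of the 19 called members, 10 kept direction and call in every alternative that could test them: Cdk4, Mcm6, Gins2, Rrm2, Ccna2, Ube2c, Birc5, Top2a, Rb1 and E2f2. Ube2c passed the filter through the G9gl libraries alone and so had to differ, and its stable call is no support. None of the 19 changed direction. The number of members higher in G9gl, 16, was 9 of 28 tested with a filter of at least 5 FPKM. It ranged from 9 to 15 when 1 library was left out. Over all tested genes the number higher was 1191, and 1005 of 8022 with that filter. With a library left out it ranged from 827 to 1136. The number lower, 3, was 7 in TPM and ranged from 2 to 4 with a library left out. Over all tested genes the number lower was 1174, was 2493 in TPM and ranged from 718 to 1172 with a library left out. For the further cell cycle lists, the number higher, 16, ranged from 10 to 20 with a library left out, and the number lower, 7, was 14 in TPM and ranged from 5 to 7 with a library left out. Replicate numbers showed no clear pairing of the libraries, though 3 libraries per genotype cannot exclude one. Correlations of deviations were 0.099, -0.069 and 0.021 between libraries of the same number, and -0.153 to 0.157 between those of different numbers. A replicate block gave 15 members higher and 3 lower, and 14 and 7 further genes, with 1044 and 988 over all 10122 tested genes. Under the block Ccnb2 (adjusted p = 0.011) and Mcm2 (0.0499) were called, and Mcm3, Mcm5 and Tyms were not. Genes under 1 FPKM rest on about 20 fragments or fewer in a transcript of 2 kb, so their lack of a call says little.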
